A study of Canis lupus familiaris with 16 samples.

Results

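AQP1 (aquaporin 1, ENSCAFG00000003102) was 1 of 24580 genes measured by RNAseq in canine meningiomas and normal canine meninges. It was taken because the study listed it among genes with lower expression in the meningiomas, so the difference between the groups chose it and is described here without a test. Its level was read in 13 meningioma libraries, each from the tumor of a middle-aged or old pet dog, and in 3 libraries of leptomeninges from healthy research beagles, whose age was not given in the sources used here. Of the meningiomas, 6 were grade I (5 transitional and 1 meningothelial) and 7 were grade II (atypical). No treatment was compared. The meningiomas were formalin-fixed and paraffin-embedded except for a pair of flash-frozen biopsies, and their dogs were of many breeds, whereas the controls were all flash-frozen. Tissue and breed therefore differ between the groups throughout, and preservation for all but the frozen pair. RNA extraction differed between fixed and frozen tissue. The tumors were surgical biopsies from several sites, and the control meninges were collected over the cortex shortly after euthanasia. The part of preservation, extraction, collection, site or breed in the level of AQP1 was not tested. The table numbers its libraries within each group only (meningiomas 0 to 12, controls 0 to 2), and its names do not pair them with the labelled samples, so grade, subtype and preservation were not assigned to single libraries here.

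Aquaporins are tetramers of membrane proteins in which each subunit forms its own water pore, lined in part by a pair of Asn-Pro-Ala motifs. AQP1 is the constitutive water channel of red blood cells, of the renal proximal tubule and of the capillary endothelium of many peripheral organs. In the brain it is best known from the apical membrane of choroid plexus epithelium, where it contributes to cerebrospinal fluid secretion. Endothelium behind the blood-brain barrier carries little of it, and water exchange at the astrocyte endfeet depends on AQP4 instead. In the RefSeq annotation of the dog assembly UU_Cfam_GSD_1.0, which is not the build of the table, AQP1 lies on chromosome 14 between MINDY4 and GHRHR. That annotation holds 13 aquaporin genes, and the other members of the family were not analysed here because their identifiers were not paired with symbols.

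The table gives the number of sequenced fragments on each gene and FPKM, the authors' fragment level corrected for library size and length of the transcript. Between 2138741 and 7358925 fragments per meningioma library and between 2269204 and 7054614 per control library fell on genes. The arachnoid-type gene PDPN (podoplanin) was present in every library, at 44.1 to 478 FPKM in the meningiomas and 16.9 to 44.6 FPKM in the controls. Intervals below are exact 95% Poisson intervals and cover counting error only.

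In normal meninges AQP1 was an abundant transcript. Control library 0 had 3468 fragments and an FPKM of 180.4, control library 1 had 686 fragments and 101.4 FPKM, and control library 2 had 3083 fragments and 242.1 FPKM. The mean was 174.6 ± 70.5 FPKM (SD, n = 3), and the highest control was 2.39-fold above the lowest. In these libraries 97.0% to 98.7% of the genes with any fragment had a lower FPKM, and AQP1 ranked between 219 and 561 of all genes.

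No meningioma library, and so neither of the frozen ones, reached the AQP1 level of the lowest control. Library 11 was the lowest with 59 fragments and 4.55 FPKM (interval 3.46 to 5.87), the median was 19.6 FPKM in library 1 with 229 fragments, and library 7 was the highest with 793 fragments and 89.3 FPKM (interval 83.2 to 95.8). The mean was 25.4 ± 22.9 FPKM (SD, n = 13), 6.89-fold below the control mean. The ratio of the medians was 9.22. The share of all tested genes in which every meningioma lay below every control was 3.65%, and AQP1 had been picked from the genes of this contrast.

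The margin was wide in most libraries and narrow in library 7. Taken against the mean of the controls, AQP1 was at least 2-fold lower in 12 of 13 meningiomas, at least 4-fold in 11 and at least 10-fold in 6. Library 7 was 1.95-fold below that mean. Its interval of 83.2 to 95.8 FPKM overlapped that of control library 1, which was 93.9 to 109.3 FPKM. Without library 7 the meningioma mean was 20.03 ± 13.0 FPKM (SD, n = 12), 8.72-fold below the control mean.

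**Figure D1:**
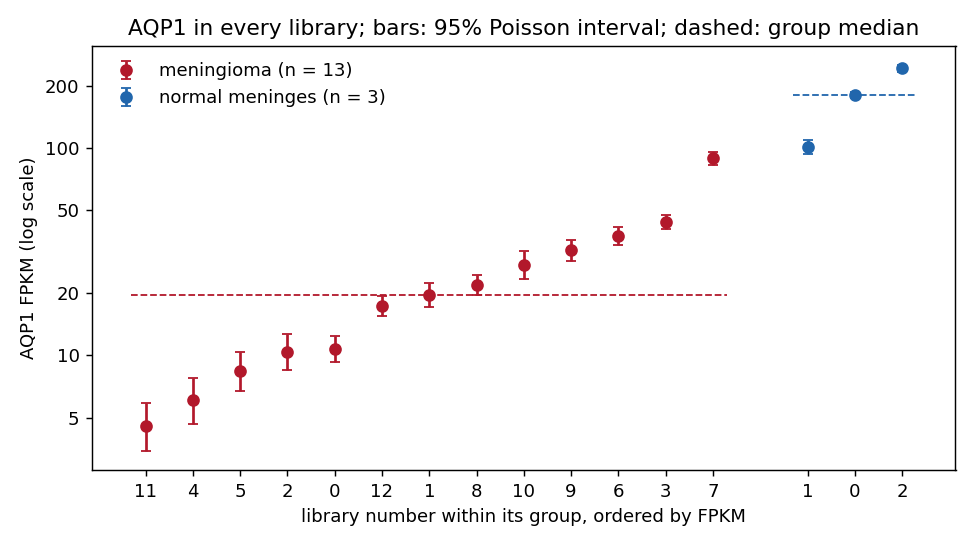
AQP1 in FPKM (log axis) in each library, ordered by level within the 13 meningiomas (red) and 3 normal meninges (blue), with library numbers on the horizontal axis, exact 95% Poisson intervals as bars and group medians as dashed lines. The meningiomas run from 4.55 to 89.3 FPKM and the controls from 101.4 to 242.1 FPKM, and the interval of library 7 reaches that of the lowest control.

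In a fit of all libraries with edgeR, the log2 fold change of AQP1 in meningioma relative to normal meninges was -2.77 with a standard error of 0.58, or 6.84-fold lower. The median over all 14345 tested genes was 0.06, and 152 of these genes (1.06%) had a lower log2 fold change than AQP1. Without control library 2, the highest, it was -2.47, and without meningioma library 7 it was -3.12. In tissue RNA, fewer cells that express AQP1 and less AQP1 RNA per cell cannot be told apart.

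The level of AQP1 differed widely from one meningioma to the next. Its FPKM spanned 19.6-fold over the 13 meningiomas, and the share of genes with fragments that lay below it ran from 36.7% in library 11 to 94.2% in library 7. Given the depths of the libraries, the variance of its fragments was 227.8 times that of counting. The SD of its log2 CPM (fragments scaled to a common library size) was 1.22 in the meningiomas (n = 13) and 0.62 in the controls (n = 3). Among the 500 genes nearest to it in mean level over the meningiomas, 96.0% had a smaller SD, with a median of 0.44. The 13 meningiomas were those left after the study had removed samples for low mapping, as outliers in expression or for a revised diagnosis. The spread is that of this selected set.

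Counting error was small beside this spread, though the intervals of most neighbouring libraries overlapped. In order of FPKM, 10 of the 12 neighbouring pairs of meningioma libraries had overlapping counting intervals. Overlap alone does not show that the levels of a pair are alike, and the order within pairs was not tested. The gaps lay between library 0 (10.8 FPKM) and library 12 (17.3 FPKM) and between library 3 (44.1 FPKM) and library 7 (89.3 FPKM). Below the first gap were libraries 11, 4, 5, 2 and 0, all at 10.8 FPKM or less. Between the gaps lay libraries 12, 1, 8, 10, 9, 6 and 3.

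Depth and the number of detected genes were set against AQP1 over the 13 meningiomas, as 2 relations. For log2 total fragments, Pearson's r was -0.23 (permutation p = 0.451, adjusted 0.682) and Spearman's rho was -0.32 (permutation p = 0.287, adjusted 0.575). Without the 2 libraries farthest from the median depth, r was -0.11. For the number of genes with fragments, r was 0.13 (permutation p = 0.682, adjusted 0.682) and rho was 0.08 (permutation p = 0.792, adjusted 0.792), and r was -0.14 without the 2 farthest libraries. Neither relation passed the test, and at 13 libraries a moderate one could be missed.

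The rule that took AQP1 compared the groups and did not use its variation among the meningiomas, so genes that varied with it there were tested. In edgeR's quasi-likelihood test with the log2 level of AQP1 as a covariate, a slope is the log2 change of a gene for each doubling of AQP1. With 13 libraries, 0 of 14344 genes (0.00%) had an adjusted p under 0.05. At an unadjusted p under 0.05, 527 genes (3.67%) had a slope above 0 and 388 (2.70%) a slope below 0. With DESeq2 in place of edgeR, 76 genes had an adjusted p under 0.05, 56 of them with a slope above 0. Permutation tests of Pearson's and of Spearman's correlation likewise gave 0 genes with an adjusted p under 0.05 over all genes, while 870 had an unadjusted p under 0.05 for Spearman's. The groups of genes below are therefore described by their counts and medians beside those of all genes. Genes of a list were read in the same 13 libraries and may vary together, so their counts are not independent observations. No listed gene had an adjusted p under 0.465 in the edgeR fit or under 0.786 for rho. Fixed and frozen meningiomas were fitted together.

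Of the lists examined, endothelial genes had the highest median correlation with AQP1. Of 27 endothelial genes listed, 20 had an identifier, and CDH5, KDR and VWF were among those without one. All 20 had a Spearman's rho above 0 with AQP1 over the 13 meningiomas, from 0.04 to 0.77 with a median of 0.59. Of all genes, 49.7% were above 0, with a median of 0.00. In the edgeR fit 19 of the 20 slopes were above 0, 11 of them at an unadjusted p under 0.05 beside the 3.67% of all genes, and the lowest adjusted p was 0.465. The median slope was 0.32 on the log2 scale for each doubling of AQP1. These genes, like the mural, matrix and transport genes below, had been listed by the study for lower expression in these same meningiomas. Of the 36 genes also listed as lower but in none of these groups, 72.2% had a rho above 0, with a median of 0.22. Of these 36, 7 had a slope above 0 at an unadjusted p under 0.05 in the edgeR fit. Genes that mark red blood cells and choroid plexus, other tissues rich in AQP1, had no identifier and were not analysed here.

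ARAP3 (ENSCAFG00000006214), a phosphoinositide-binding signaling protein of endothelium, was the listed gene most like AQP1. Its FPKM was lowest in library 11 (2.75), where AQP1 was lowest too, had a median of 3.40, and was highest in libraries 6 and 7 (7.58 and 7.25). In the controls it was 18.9, 13.9 and 27.3 FPKM in libraries 0, 1 and 2, the same order as for AQP1. Over the 13 meningiomas r was 0.81 (permutation p = 6.1e-04) and rho was 0.77 (permutation p = 0.00279, adjusted 0.786 over all genes), and r was 0.73 without libraries 7 and 11. Its slope was 0.36 with a standard error of 0.09 (adjusted p = 0.465 with edgeR and 0.0352 with DESeq2).

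ESAM, an adhesion molecule of endothelial tight junctions, had a rho of 0.73 (permutation p = 0.00592, adjusted 0.786), an r of 0.65 (permutation p = 0.0162) and an r of 0.59 without libraries 7 and 11. For ARHGEF15, a signaling protein of endothelium, rho was 0.71 (permutation p = 0.00768, adjusted 0.786) and r was 0.63 (permutation p = 0.0222), or 0.59 without these libraries. Next in the list were EMCN (endomucin, an endothelial sialomucin) with a rho of 0.71, TM4SF18 with 0.69, MYCT1 with 0.65 and CYYR1 with 0.65.

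The classical marker PECAM1, an adhesion receptor at endothelial junctions, stood in the middle of the list with a rho of 0.49 (permutation p = 0.0891) and an r of 0.56 (permutation p = 0.0440). Library 7 held the highest level of PECAM1 as of AQP1 (68.5 FPKM, with a median of 21.0 over the meningiomas), and without libraries 7 and 11 its r was 0.27. At the low end were TEK (the angiopoietin receptor) with a rho of 0.09 and NOS3 (endothelial nitric oxide synthase) with 0.04. NOS3 was highest in library 2 (12.3 FPKM), a library with 10.4 FPKM of AQP1.

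Library 7 carried much of the endothelial count. When that library was left out, 5 members in place of 11 had a slope above 0 at an unadjusted p under 0.05. Of all 14344 genes, 654 in place of 527 had such a slope. Without libraries 7 and 11 the median r of the list was 0.34 in place of 0.55. The median rho lay between 0.51 and 0.64 with each meningioma library left out in turn.

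**Figure D2:**
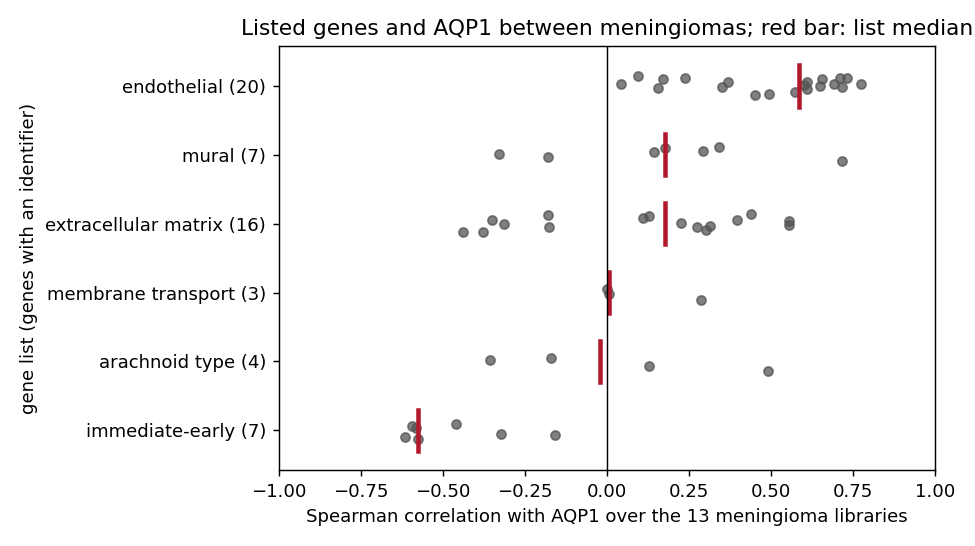
Spearman's correlation of each listed gene that had an identifier with AQP1 over the 13 meningioma libraries (horizontal axis, no unit), by gene list (vertical axis, number of genes with an identifier in brackets), with the median of each list as a red bar. All 20 endothelial genes lie above 0 with a median of 0.59 and all 7 immediate-early genes lie below 0 with a median of -0.58.

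Set against the mean log2 CPM of the 20 endothelial genes within the same library, AQP1 was 1.69 to 2.15 higher in the 3 controls. In the meningiomas this difference ran from 0.08 in library 11 to 2.86 in library 7, with a median of 1.86, and so overlapped the controls. It was 0.13 in library 4, 0.54 in library 2, 0.68 in library 5 and 1.37 in library 0, below every control. It was 2.36 in library 1, 2.51 in library 3, 2.30 in library 9 and 2.86 in library 7, above every control. Taken from the means of the mural, matrix and transport genes, the difference overlapped the controls too. Its medians were 2.43, 0.88 and 2.22 in the meningiomas and 1.82, 0.80 and 2.21 in the controls, in this order. The endothelial mean itself ran from 3.35 to 5.07 in the meningiomas and from 6.42 to 7.21 in the controls. The SD over the meningiomas was 1.22 for AQP1 and 0.52 for the endothelial mean. In log2 fold change between the groups, AQP1 (-2.77) lay within the range of the endothelial genes, which was -3.80 to -1.60 with a median of -2.67, and 8 of the 20 were lower than AQP1. It also lay within the ranges of the mural (-3.50 to -2.59), matrix (-4.13 to -1.76) and transport genes (-3.305 to -2.416). AQP1 and all these genes had been listed for lower expression, so a shared range follows from that choice.

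**Figure D3:**
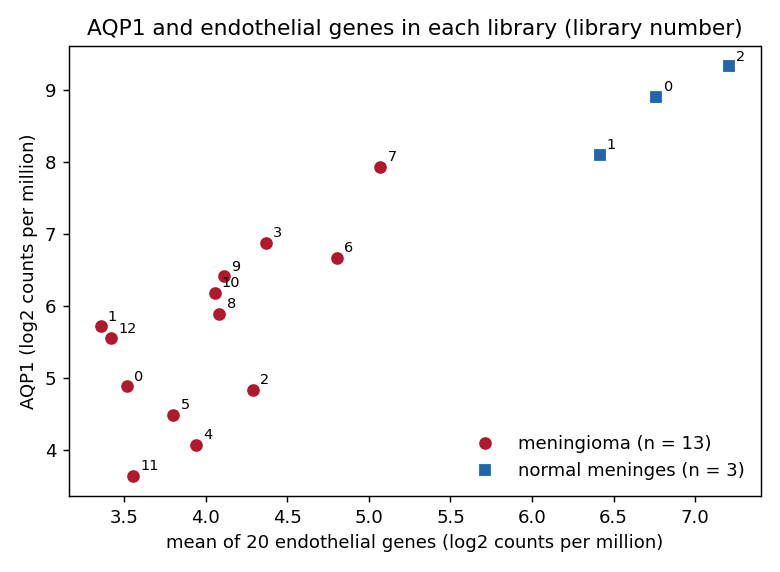
AQP1 (vertical axis) against the mean of the 20 endothelial genes (horizontal axis), both in log2 CPM, in the 13 meningiomas (red circles) and 3 normal meninges (blue squares), with library numbers beside the points. The controls lie apart at the upper right, and at like endothelial means the meningiomas differ in AQP1, as libraries 2 and 3 do (4.83 against 6.88).

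Mural genes, of the smooth muscle cells and pericytes around vessels, had a lower median. Of 7 members with an identifier, from 14 listed, 5 had a rho above 0 and the median was 0.18. MYH11, the smooth muscle myosin heavy chain, had the highest, with a rho of 0.71 (permutation p = 0.00790, adjusted 0.786) and an r of 0.58 (permutation p = 0.0348), or 0.46 without libraries 7 and 11. NOTCH3, a receptor of pericytes and smooth muscle, had a rho of -0.18, and PTGIR, the prostacyclin receptor, had -0.33. In the edgeR fit 2 of the 7 genes had a slope above 0 at an unadjusted p under 0.05. Beside this stand 3.67% of all genes and 7 of the 36 other genes listed as lower.

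Among 16 extracellular matrix and fibroblast-type genes with an identifier, from 21 listed, 10 had a rho above 0. The median was 0.18 and the range ran from -0.44 to 0.55. The apolipoprotein APOD and the laminin chain LAMC3 had the highest (both 0.55), and CCDC80, a matrix-associated secreted protein, the lowest (-0.44). FBLN2 (fibulin 2), a basement membrane and elastic fiber protein, had -0.35. Slopes at an unadjusted p under 0.05 were found for APOD (0.85) and the collagen gene COL14A1 (0.52). These are 2 of 16, beside 3.67% of all genes with a slope above 0 at that p and 7 of the 36 other genes listed as lower.

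FRZB (ENSCAFG00000024988), a secreted antagonist of WNT ligands, belonged to none of these lists. Among the genes with a symbol it was second to ARAP3 in likeness, whereas the highest rho over all genes was 0.87. The rho of FRZB was 0.77 (permutation p = 0.00321, adjusted 0.786) and its r was 0.74 (permutation p = 0.00490), or 0.59 without libraries 7 and 11. FRZB was 24.95 FPKM in library 7, where AQP1 was highest, and 3.73 FPKM in library 11, where it was lowest. Library 2 had the lowest FRZB, with 2.83 FPKM. The slope was 0.59 with a standard error of 0.16 (adjusted p = 0.525 with edgeR).

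**Figure D4:**
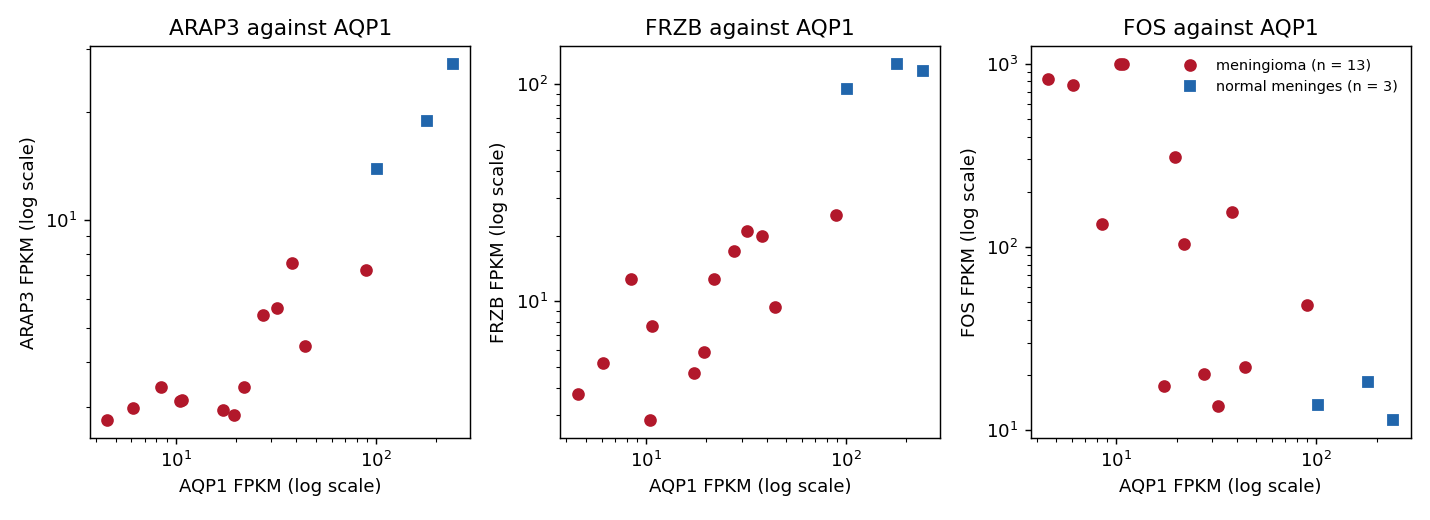
FPKM of ARAP3, FRZB and FOS (vertical axes, log) against FPKM of AQP1 (horizontal axes, log) in the 13 meningiomas (red circles) and 3 normal meninges (blue squares). Over the meningiomas rho is 0.77 for both ARAP3 and FRZB and -0.62 for FOS.

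Only 3 of the 12 membrane transport genes listed had an identifier. The rho was 0.29 for ABCA8 (a lipid transporter), 0.01 for CACNA2D2 (a calcium channel subunit) and 0.00 for SCN7A (a sodium channel). In the edgeR fit ABCA8, 1 of the 3, had a slope above 0 (0.54) at an unadjusted p under 0.05. Beside this stand 3.67% of all genes and 7 of the 36 other genes listed as lower. The arachnoid-type genes, a list for arachnoid and meningioma, did not share a direction in rho. Only 4 of the 7 had an identifier, and the study had listed all 4 for higher expression in these meningiomas. PDPN had a rho of -0.17 and MEDAG of -0.36, whereas WNT5A (a WNT ligand) had 0.13 and BMPER (a secreted regulator of BMP signaling) 0.49, and the median of the 4 was -0.02.

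Immediate-early genes, which cells transcribe within minutes of a stimulus, ran opposite to AQP1. Of 10 genes listed, 7 had an identifier, and all 7 had a rho below 0, from -0.62 to -0.16, with a median of -0.58. In the edgeR fit all 7 slopes were below 0, 5 of them at an unadjusted p under 0.05 beside the 2.70% of all genes, and the lowest adjusted p was 0.525. The study had listed these genes for higher expression in the same meningiomas.

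FOS, a subunit of the AP-1 transcription factor, had the most negative rho of the genes with a symbol. It was 999.7 FPKM in library 2, 998.5 in library 0, 822.3 in library 11 and 763.3 in library 4. In the same order these libraries had 10.4, 10.8, 4.55 and 6.07 FPKM of AQP1, which are among its 5 lowest levels. The other low library, 5, had 132.7 FPKM of FOS, and library 7, with the highest AQP1, had 47.9 FPKM. Libraries 1, 6 and 8 had 307.8, 154.9 and 103.5 FPKM of FOS, with 19.6, 37.8 and 21.9 FPKM of AQP1. In libraries 3, 10, 12 and 9 FOS was 22.0, 20.1, 17.3 and 13.6 FPKM, near the controls (11.3 to 18.2 FPKM), and AQP1 was 44.1, 27.4, 17.3 and 32.1 FPKM.

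Over the 13 meningiomas FOS had a rho of -0.62 (permutation p = 0.0283, adjusted 0.810) and an r of -0.70 (permutation p = 0.00929), or -0.69 without libraries 7 and 11. The slope was -1.29 with a standard error of 0.36 (adjusted p = 0.525 with edgeR and 0.0220 with DESeq2). For EGR1, a zinc finger transcription factor, rho was -0.58 (permutation p = 0.0420, adjusted 0.819), r was -0.66 (permutation p = 0.0146) and -0.55 without these libraries, with a slope of -1.23 (adjusted p = 0.567 with edgeR and 0.0241 with DESeq2). ZFP36, which promotes decay of AU-rich mRNAs, had a rho of -0.59 and FOSB, another AP-1 subunit, of -0.58. BMPR1B, a BMP receptor that is no immediate-early gene, followed with -0.49 (permutation p = 0.0913), and MYC was the member least related to AQP1, with -0.16.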

How the data were processed

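Total RNA of 13 canine meningiomas and 3 normal meninges was sequenced after removal of ribosomal RNA. Per the labels and the study's methods, the authors trimmed reads with cutadapt 1.8, discarded ribosomal and other small RNA reads, aligned the remainder to CanFam3 with TopHat2 2.0.13 and ran Cuffdiff 2.2.1. The deposited table holds estimated counts of fragments, a signal that the authors made by dividing them by 1 size factor per library, and the authors' FPKM. Scaled fragments gave size factors only. All AQP1 counts were whole, and 0.335% of all values were not and were rounded. Whether a library is a meningioma or a control was read from its condition code, N as in the titles of the controls.

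The fits used edgeR 4.0.16 (R 4.3.3) with TMM normalization, on the 14345 genes that reached 10 fragments in 3 or more libraries. Standard errors are the slope or fold change divided by the root of F. Correlations used log2 CPM (prior count 1) and 100000 two-sided permutations, whose smallest p is 1e-05. Adjusted p-values are Benjamini-Hochberg over all genes, except for the 2 relations with depth and detected genes. Adjustment over the listed genes alone was planned and replaced by this. AQP1, the lists and the tests were chosen with earlier results of these data known, so p-values over the lists alone would not be independent of them. Alternatives used DESeq2 1.42.0 and limma 3.58.1, among others. The genes named are the list members with an identifier and the 5 with the highest and 5 with the lowest rho among genes with a symbol, and not all are reported. The fits were tested on simulated data. Symbols came from the study's lists of 124 distinct identifiers; the lists of aquaporins and of erythroid, choroid plexus, astrocyte, neuron and immune genes had 0 members with one and were not analysed here, nor was the study's qPCR of AQP1. The p-values measure the spread between libraries of 1 per dog.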

Additional observations from a re-analysis of the deposited data

How the results depend on the processing

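The log2 fold change of AQP1 lay between -3.16 and -2.76 in 6 alternatives (other size factors, DESeq2, log2 FPKM with a pseudocount of 1 or 0.1, no filter on low counts) and between -3.12 and -2.47 with each of the 16 libraries left out in turn. The SD of its log2 level between meningiomas lay between 1.15 and 1.22 in 3 alternatives, and between 1.05 and 1.27 with each meningioma left out. The number of genes with an adjusted p under 0.05 for a slope on AQP1 was 0 in 5 of 7 alternatives, 3 with no filter on low counts (20247 genes tested) and 76 with DESeq2, of which ARAP3, FOS and EGR1 have a symbol. With each meningioma left out it was 0 to 1. The endothelial genes with a slope above 0 at an unadjusted p under 0.05 numbered 10 or 11 in the 7 alternatives and 5 to 13 with each meningioma left out, the 5 being without library 7. The immediate-early genes below 0 at that p numbered 4 to 6, and 5 to 6 with each meningioma left out. Of all genes, 403 to 783 had a slope above 0 at that p in the 7 alternatives and 366 to 672 with each meningioma left out. Those with a slope below 0 numbered 304 to 506 and 313 to 476. In these fits 14344 genes were tested, except for 20247 with no filter and 10851 with a filter of 50 fragments in 3 libraries. With each meningioma left out, the median rho lay between 0.51 and 0.64 for the endothelial list, -0.67 and -0.47 for the immediate-early list, -0.03 and 0.34 for the mural list, 0.01 and 0.28 for the matrix list, -0.17 and 0.11 for the arachnoid-type list and -0.06 and 0.17 for the membrane transport list. The cause of these differences was not tested. The comparison of other aquaporins was not run, since no identifier was paired with a symbol. No paired analysis was possible because the library numbers of the table do not correspond to the sample numbers and the groups come from different dogs.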

Other observations

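AQP1 was lowest in control library 1, intermediate in library 0 and highest in library 2, and 17 of the 20 endothelial genes had the same order in log2 CPM, against 16.9% of all tested genes. Of the mural genes 3 of 7 did so, of the matrix genes 4 of 16 and of the immediate-early genes 0 of 7. With 3 libraries this is a description of these dogs.

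Among the symbols of the study's lists that matched the annotation of UU_Cfam_GSD_1.0, BMPER was the only other one on chromosome 14. Between it and AQP1 lay 19 protein-coding genes. Listed symbols that differ from those of that annotation were not placed. In the controls BMPER had a mean of 5.90 ± 1.81 FPKM (SD, n = 3), and in the meningiomas one of 24.8 ± 16.1 FPKM (SD, n = 13), the opposite direction to AQP1. No value is given here for the genes that lie between.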
